A study of Homo sapiens with 24 samples.

Results

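Of the 2296 Myc peaks at the ends of protein-coding genes in MIA PaCa-2 cells without doxycycline, 298 overlapped no peak of the library titled as day 5 of doxycycline. These 298 peaks are described here, and they are 13.0% of the gene-end peaks (exact Clopper-Pearson 95% interval 11.6% to 14.4%). They were chosen by comparing 2 deposited peak lists on chromosomes 1 to 22 and X. A peak of the list without doxycycline was taken when it shared not even 1 bp with any day 5 peak and came within 1 kb of either end of a protein-coding gene span. Among all 3468 peaks of that list, 618 (17.8%) had no day 5 overlap, and 320 of these lay away from gene ends. The absence of a day 5 overlap therefore defined the group and is no result about it.

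MIA PaCa-2 is an established human pancreatic carcinoma line. In both libraries the cells carried MED30, a subunit of the Mediator complex, as a cDNA under tetracycline-inducible control, so the cells without doxycycline carried the transgene uninduced. The series design asks how extra MED30 changes the binding of other factors. The series also holds libraries of MIA PaCa-2 cells titled as carrying an inducible shMED30, which were not used here. Myc binding was measured by CUT&Tag, in which an antibody brings a transposase to its target and the tagged DNA is sequenced. The labels give the second library 5 days of doxycycline in its title but 2 days in the shared protocol, and they do not say whether the line is 1 clone. There was 1 library per condition, so no difference between the conditions could be tested. The other 22 of 24 samples, among them control IgG libraries, were not analysed here, and whether an IgG control entered the deposited peak calls is not stated.

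The day 5 list was the longer of the pair, with 6718 peaks against 3468 on these chromosomes. The files do not state how many reads each library had. Median summit counts were 11 fragments without doxycycline and 12 at day 5, so both lists reached down to sites held by few fragments. A gene missing from the day 5 list had no peak past the caller's threshold there, which does not mean that Myc was absent. Whether unequal depth has a part in the group's makeup was not tested.

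Myc is a basic helix-loop-helix leucine zipper protein that binds DNA as a partner of MAX. Its preferred sites are E-boxes, and in growing cells it occupies the promoters of very many active genes, including those for ribosome assembly, translation, RNA processing and metabolism. Mediator connects such DNA-bound factors to RNA polymerase II at the promoter. The MYC and MAX genes each had a gene-end peak in both lists and so are not in the group, and MED30 had none in either.

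The sequences upstream of 6 of the genes are printed first, because each is the stretch of promoter that one of the stronger peaks covered or touched. They are those with the highest-ranked peaks among the genes whose summit lay in a RefSeq promoter window and whose upstream DNA lay outside coding gene spans. Each is the 250 bases that end just before the gene start, 5′ to 3′ on the gene's strand, from RefSeq's annotation of GRCh38.p14, the hg38 assembly. Capitals mark, on either strand, the canonical E-box CACGTG, its variant with a CG centre, CACGCG, its variant with a TG centre, CATGTG, or the core site of ETS factors, CCGGAAG.
DOHH, chr19:3500675-3500924, minus strand: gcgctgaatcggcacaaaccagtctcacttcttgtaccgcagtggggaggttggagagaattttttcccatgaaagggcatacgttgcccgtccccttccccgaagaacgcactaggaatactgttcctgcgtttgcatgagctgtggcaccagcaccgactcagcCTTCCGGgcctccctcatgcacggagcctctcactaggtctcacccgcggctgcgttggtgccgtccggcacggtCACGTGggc
EIF1AD, chr11:66002158-66002407, minus strand: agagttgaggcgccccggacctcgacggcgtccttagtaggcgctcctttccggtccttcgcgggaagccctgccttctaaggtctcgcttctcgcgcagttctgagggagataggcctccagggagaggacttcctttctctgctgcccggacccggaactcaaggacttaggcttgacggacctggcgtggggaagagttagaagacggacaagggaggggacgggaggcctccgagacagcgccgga
MOSPD3, chr7:100611912-100612161, plus strand: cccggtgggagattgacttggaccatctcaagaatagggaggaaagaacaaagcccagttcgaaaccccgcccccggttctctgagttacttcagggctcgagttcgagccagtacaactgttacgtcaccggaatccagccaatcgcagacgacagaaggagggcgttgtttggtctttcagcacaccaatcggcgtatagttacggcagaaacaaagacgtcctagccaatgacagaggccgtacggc
CZIB, chr1:53220635-53220884, minus strand: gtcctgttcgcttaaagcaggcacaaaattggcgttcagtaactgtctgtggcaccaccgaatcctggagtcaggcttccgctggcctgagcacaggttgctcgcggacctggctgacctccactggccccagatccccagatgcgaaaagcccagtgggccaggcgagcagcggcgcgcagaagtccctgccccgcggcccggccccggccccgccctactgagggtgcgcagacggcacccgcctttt
ALDH4A1, chr1:18902556-18902805, minus strand: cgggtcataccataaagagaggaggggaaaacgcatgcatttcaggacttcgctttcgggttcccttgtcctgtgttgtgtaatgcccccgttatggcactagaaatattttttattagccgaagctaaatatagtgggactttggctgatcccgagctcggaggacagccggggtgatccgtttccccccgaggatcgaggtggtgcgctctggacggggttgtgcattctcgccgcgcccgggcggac
SLC4A2, chr7:151057950-151058199, plus strand: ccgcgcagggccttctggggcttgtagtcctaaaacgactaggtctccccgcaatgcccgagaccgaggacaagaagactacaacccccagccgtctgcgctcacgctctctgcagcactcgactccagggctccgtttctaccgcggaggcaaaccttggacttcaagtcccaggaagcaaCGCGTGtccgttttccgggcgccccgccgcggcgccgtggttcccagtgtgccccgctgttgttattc
The DOHH window had CACGTG beginning at position -9 from the start and the ETS core, on the other strand, beginning at position -84. Its peak's summit was at position -91, close to the ETS core. SLC4A2 had the CACGCG form on the opposite strand at position -68, with the summit at -6. The remaining 4 windows held none of these motifs in the 250 bases, with summits at -145 for EIF1AD, 38 for MOSPD3, -8 for CZIB and -82 for ALDH4A1. MOSPD3 and CZIB held both a CCAAT box and a GC box, and ALDH4A1 a GC box and an NRF1 core.

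In the promoter windows of the group, 15 peaks covered a CACGTG E-box, and at 5 of them, DOHH among these, the summit lay in the window too. The 5 E-boxes nearest their summits are shown with 30 bases in all from the same annotation, the E-box in capitals, to give the surroundings of a canonical Myc motif under a peak of the group.
BCL11B, chr14:99272418-99272447, minus strand: gCACGTGtgtccggcttgggctgcgggtgt
UTP14A, chrX:129905914-129905943, plus strand: accttgggcCACGTGgaaaccaggggccag
CCNT1, chr12:48716924-48716953, minus strand: ccgcccaacggtCACGTGacgcgcctgcgt
COMMD10, chr5:116085420-116085449, plus strand: gtgctgccgaatCACGTGgaacggtattcc
MRPL45, chr17:38297023-38297052, plus strand: cactcccgcgagCACGTGcgcgtcctcgct
The summit was 5.5 bp from the middle of the E-box at BCL11B, 26.5 bp at UTP14A, 40.5 bp at CCNT1, 62.5 bp at COMMD10 and 74.5 bp at MRPL45, and 84.5 bp at DOHH. BCL11B is a zinc finger transcription factor, UTP14A a factor of ribosome assembly, CCNT1 the cyclin of the elongation kinase, COMMD10 a subunit of an endosomal sorting complex, and MRPL45 a protein of the mitochondrial ribosome. The peak at BCL11B held 5 fragments over the summit and the other 4 held 7 each. These sites were picked for their nearness to the summit, so the distances say nothing of the group as a whole.

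Fragment numbers are the plainest measure of how strong a peak was. They were recovered from the deposited fold and −log10 p-value of each peak. A gene named with a peak is the one whose end was nearest the summit, unless the peak is said to be shared. The highest-ranked peak of the group by −log10 q lay at chr2:130337193-130337585, beyond the far end of VMA22, which encodes an assembly factor of the vacuolar proton pump. It had 25 fragments over its summit (exact Poisson 95% interval 16.2 to 36.9) of 56 in the surrounding 10 kb, and a −log10 q of 15.4. This peak overlapped the tRNA gene TRE-TTC1-1, and VMA22 also had a separate day 5 peak, so it does not mark a gene that went without one.

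Among the 30 highest-ranked peaks were those at genes of mitosis, chromatin, RNA tails, translation and metabolism. TPX2, which activates the mitotic kinase Aurora A on the spindle, had a peak at chr20:31738784-31739197 with 16 fragments (9.15 to 26.0) of only 19 in its 10 kb window. The nearest day 5 peak to it was 14.8 kb away. FUZ, a planar polarity protein needed for cilia, had 17 fragments (9.90 to 27.2) of 31.5, and its nearest day 5 peak was 3.98 kb away. The peak shared by ASH1L, a histone methyltransferase, and its neighbour MSTO1 had 18 fragments (10.7 to 28.4) of 39. Window totals can end in 0.5 because a fragment with 1 end in the window counts as 0.5.

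Several of the genes had few other fragments around them. TENT2, a poly(A) polymerase of the cytoplasm, had 13 of 16.5 fragments at its summit, and LCMT2, which makes the modified base wybutosine in tRNA, had 12 of 15. PHRF1, a protein with PHD and RING domains that binds RNA polymerase II, had 12 of 16, and HSD17B7, an enzyme of cholesterol synthesis, 11 of 14. Most of the fragments of these windows thus lay over the summit. In 154 of the 298 peaks the summit held 50% or more of the window's fragments, and in 6 it held all of them. These counts were not made for gene-end peaks with a day 5 overlap, so they are not set against a background. Median summit and window fragments were 7 and 15 in the group, and 12 and 26 in those overlapping peaks.

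Other peaks stood in busier surroundings. TUBB3, the class III beta-tubulin best known from neurons, had 23 fragments (14.6 to 34.5) of 77.5 in the window. Its peak also reached MC1R, the melanocortin receptor gene next to it, which had a day 5 peak. ZNF692, a zinc finger gene, had 13 of 27 with a day 5 peak 187 bp away. With VMA22, these were among the 4 of the 30 highest-ranked peaks that reached a gene with a day 5 peak of its own.

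The rest of the 30 spanned varied roles. DOHH, which completes the hypusine residue of a translation factor, EIF1AD with BANF1, a chromatin-bridging protein, RPL23, of the large ribosomal subunit, ALDH4A1, of proline breakdown, and RUVBL2 with GYS1, glycogen synthase, each had 14 fragments. MTPAP, the mitochondrial poly(A) polymerase, and MOSPD3 each had 13. FLCN, the folliculin tumour suppressor, and NAGLU, a lysosomal enzyme of heparan sulfate breakdown, each had 15. ZMYM6 and SLC4A2, an anion exchanger whose peak also reached CDK5, each had 16. YPEL5, of a ubiquitin ligase complex, MRPL17, of the mitochondrial ribosome, XPO6, the exporter of actin, and CZIB each had 12, and PCMTD1 and DDHD2, a lipase, each had 11. LOC124900275 had 21, of 76.5 in its window, and THAP1, a zinc finger transcription factor, had 13 of 16. Across the 30 the summit fragments ran from 11 to 25. The Poisson interval of 11 reached up to 19.7 and that of 25 began at 16.2, so all of the intervals overlapped.

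**Figure D1:**
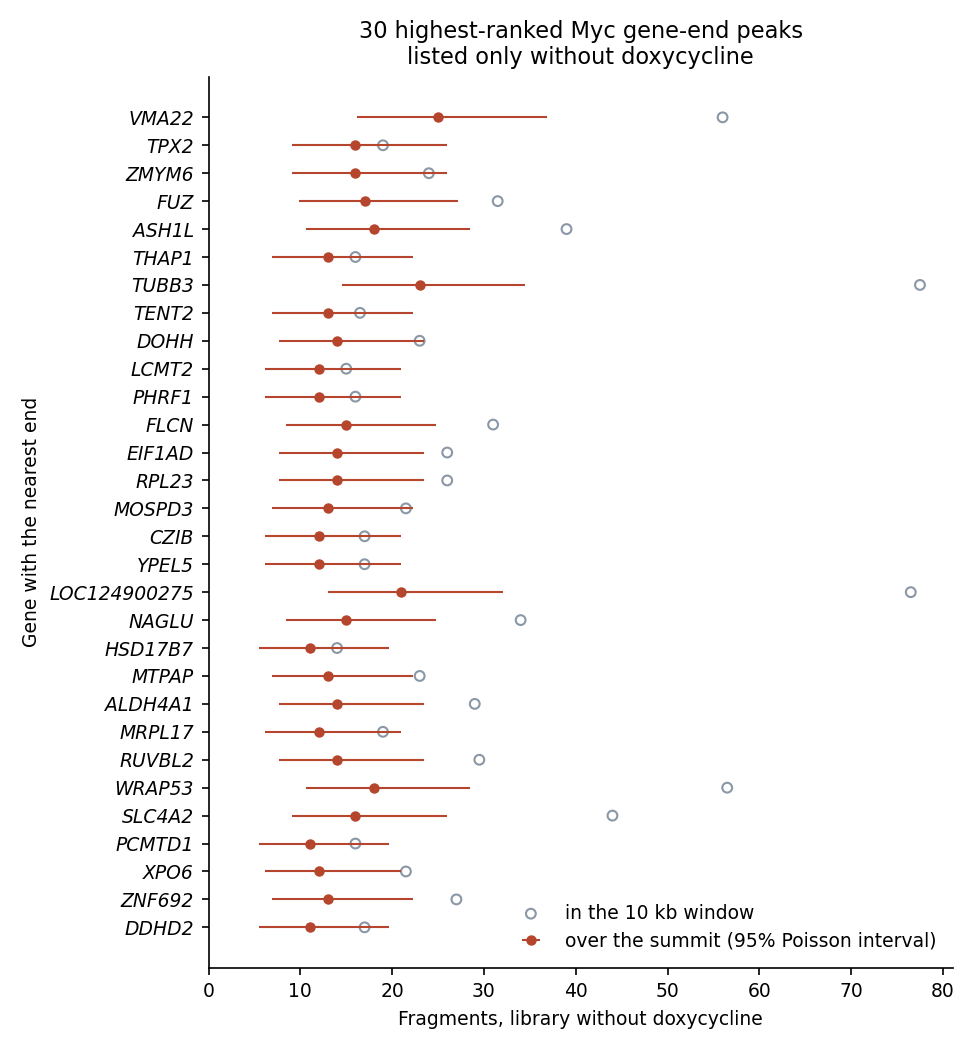
Fragments in the library without doxycycline for the 30 highest-ranked peaks of the group, one row per peak, named by the gene with the nearest end. Filled points are fragments over the summit with exact 95% Poisson intervals and open circles are fragments in the 10 kb window around it. TPX2 has 16 of 19 at the summit, while TUBB3 has 23 of 77.5.

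Most peaks of the group were weaker than these 30. The median was 7 fragments over the summit (quartiles 5 and 9, range 3 to 25), against 12 (8 and 17, range 3 to 83) for the 1998 gene-end peaks of the same library that did overlap a day 5 peak. Fewer than 10 fragments were found in 230 of the 298 (77.2%, interval 72.0% to 81.8%) and in 34.9% of the overlapping ones. The median width was 430.5 bp against 539.5 bp, and the median −log10 q was 3.51 against 6.31. Fragments in the 10 kb window around the summit had a median of 15 against 26. A total of 63 peaks (21.1%) lay in the upper 50% of the list by rank, against 59.0% of the overlapping ones. These values belong to the same contrast as the choice of the peaks and are given without a test. In fragments the group resembled the 320 unmatched peaks away from gene ends, whose median was also 7 and of which 73.8% had fewer than 10.

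The share of gene-end peaks with no day 5 overlap was lower in each stronger class of peaks. It was 34 of 82 (41.5%, 30.7% to 52.9%) below a −log10 q of 2, 30.8% from 2 to 3, 22.6% from 3 to 4 and 13.7% from 4 to 5. From 5 to 7.5 it was 8.04%, from 7.5 to 10 it was 7.64%, and from 10 to 20 it was 8 of 391 (2.05%). None of the 134 gene-end peaks at 20 or above lacked a day 5 overlap, which allows a share of up to 2.72%. Every gene-end peak of that strength thus overlapped a day 5 peak. Away from gene ends the shares were higher in the weak classes, at 83.9% below 2 and 48.9% from 2 to 3.

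**Figure D2:**
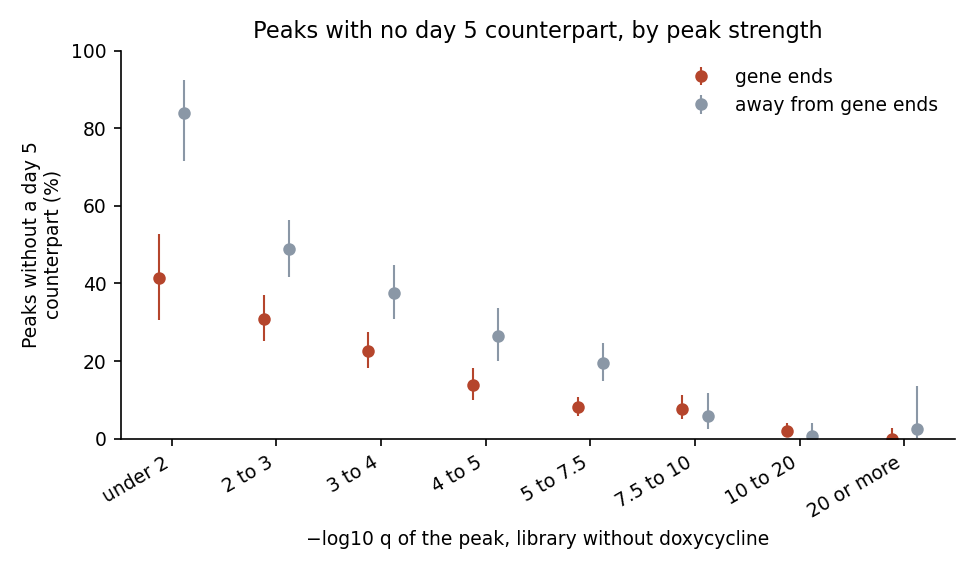
Percent of peaks without doxycycline that overlapped no day 5 peak (vertical axis), by class of −log10 q (horizontal axis), at gene ends and elsewhere, with exact 95% intervals. At gene ends the share goes from 41.5% below 2 to 2.05% between 10 and 20 and 0 of 134 above.

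Most of the group lay far from any day 5 peak. The median gap was 45.3 kb (quartiles 14.8 and 131 kb). A day 5 peak lay within 1 kb of 30 of them (10.1%, 6.90% to 14.1%), within 10 kb of 63 (21.1%) and within 100 kb of 209 (70.1%). The longest gaps were 4720 kb at SMARCAD1, a chromatin remodeller, 2742 kb at the peak between REEP3 and JMJD1C, a histone demethylase, and 1943 kb at PCMTD1. HDAC2, the histone deacetylase, with 13 fragments, was 1884 kb from a day 5 peak, and YPEL5 1251 kb. The unmatched peaks away from gene ends had a median gap of 46.0 kb, close to that of the group.

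A few peaks missed a day 5 overlap by a handful of bases. The gap was 5 bp at RBL2, a relative of the retinoblastoma protein, and 13 bp at HEXIM1, an inhibitor of the elongation kinase, and at LOC730098. Just on the other side, the smallest overlaps that kept a peak out of the group were 4 bp at LEPR and 9 bp at MYL6 and TTI1. At the limit of the gene-end window, the farthest peaks taken were 967 bp from an end at TGFB1 and RPS3 and 940 bp at CHD4. The nearest left out were 1005 bp away at FNDC3A, 1060 bp at KCNN4 and 1091 bp at TM4SF1.

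**Figure D3:**
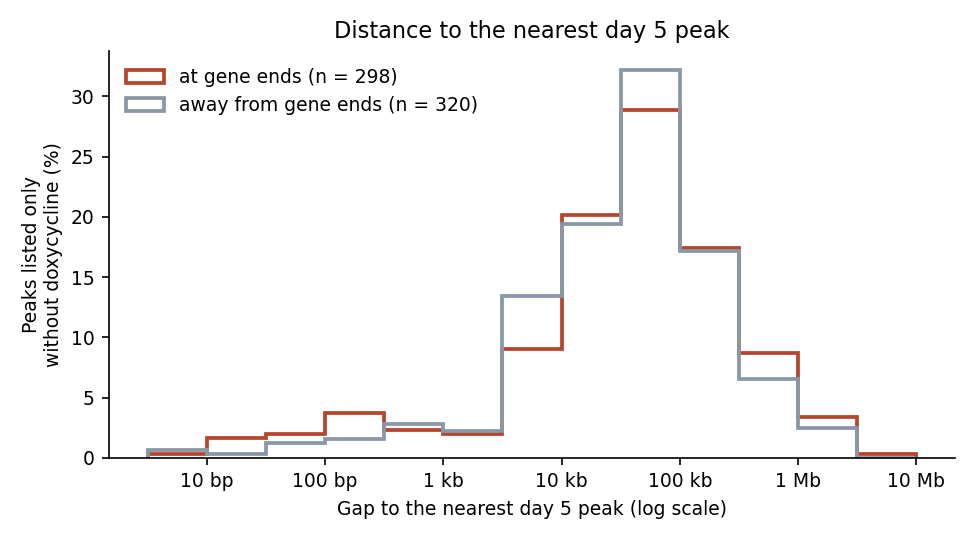
Distance from each unmatched peak to the nearest day 5 peak, on a log scale (horizontal axis), as percent of the 298 peaks at gene ends and the 320 elsewhere. The medians are 45.3 and 46.0 kb, and each group has a small tail under 1 kb.

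The 298 peaks reached the ends of 356 protein-coding genes, 1.78% of the 19974 annotated and 12.3% of the 2893 with any peak without doxycycline. A single gene was reached by 242 peaks, 2 genes by 53 and 3 genes by 3. Of the 356 genes, 50 also had a day 5 peak within 1 kb of an end, and 306 had none, which is 1.53% of the annotated genes and 10.6% of the 2893. Counted by peak, 253 reached only genes without a day 5 peak and 45 reached 1 or more genes with one. Of those 45, 28 had a day 5 peak within 1 kb of the peak itself.

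Gene roles were read from 38 lists, set against that 12.3%. Genes that process the ends of messenger RNA had the highest share of any list with 10 or more such genes. Of 42 genes for 3′ end processing and poly(A) tails, 17 had a peak without doxycycline and 6 of those (35.3%, 14.2% to 61.7%) had one in the group. They were TENT2 and MTPAP, CSTF1 of the cleavage stimulation factor with 12 fragments, NUDT21 of cleavage factor I with 9, WDR33, which reads the polyadenylation signal, with 7, and CNOT11 of the deadenylase complex with 4. NUDT21 shared its peak with OGFOD1, whose end was nearer the summit. WDR33 kept a day 5 peak elsewhere at its ends. The 3′ end processing list was the only list whose interval lay wholly above 12.3%. Lists and peaks were chosen with earlier results of these data known, so that position is a description and carries no conclusion. The 38 intervals were not adjusted for their number and no enrichment was tested.

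Genes of RNA polymerase II and its general factors gave 7 of 32 (21.9%, 9.28% to 40.0%). PHRF1 had 12 fragments, HEXIM1 10, RTF1, a factor of the elongating polymerase, 8, CCNT1 and TAF5, of TFIID, 7 each, CDK7, the kinase of TFIIH, 5 and NELFCD, of the pausing factor NELF, 3. HEXIM1 and TAF5 also had day 5 peaks. Mediator itself gave 3 of the 7 subunits that had a peak without doxycycline (42.9%, 9.90% to 81.6%). This wide interval holds the 12.3%. MED24 had 13 fragments of 72 in its window, MED31 had 6 of 12, and MED1 had 5 of 5. The MED24 peak lay beyond the far end of the gene, not at its start, and also reached CSF3. Only MED31 had no day 5 peak. The MED1 peak ended 71 bp from one, and the MED24 gene had a day 5 peak although the nearest to its unmatched peak was 35.4 kb away.

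Spliceosome genes gave 6 of 38 (15.8%), all without a day 5 peak. ISY1 had 11 fragments, U2AF1L4 had 12, RBM22 had 7, SF3A3 had 6, SMN2 had 4 and SMN1 had 3. SMN1 and SMN2 are near-identical copies, so which copy their fragments came from is uncertain. HNRNPAB and HNRNPM, RNA-binding proteins, were 2 of the 25 genes of their list with a peak without doxycycline (8.0%, 0.984% to 26.0%). They had 13 and 4 fragments.

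Genes of ribosomes and their assembly, among the best known Myc targets, had shares below the 12.3% for the cytosol and above it for mitochondria, all with intervals that hold it. Cytosolic ribosomal proteins gave 4 of 44 (9.09%): RPL23 with 14 fragments, RPL24 with 10, RPS3 with 7 and RPS20 with 4. RPS3 had a day 5 peak 31 bp away. Ribosome biogenesis factors gave 3 of 45 (6.67%), RRP1 with 8 fragments, UTP14A with 7 and NOL10 with 5. RNA polymerase I and III subunits gave 0 of 17 (upper limit 19.5%), and nucleotide synthesis enzymes 0 of 20 (upper limit 16.8%). Mitochondrial ribosomal proteins gave 6 of 25 (24.0%, 9.36% to 45.1%), led by MRPL17 with 12 fragments. MRPL45 and MRPS9 had 7 each, MRPL30 and MRPL2 had 6 each, and MRPL39 had 5. MRPS9 and MRPL2 also had day 5 peaks. MRPL2 shared its peak in the group with CUL7, whose end was nearer the summit. Aminoacyl-tRNA synthetases gave 3 of 20 (15.0%), EPRS1 with 7 fragments and the neighbours HARS1 and HARS2, which shared a single peak of 7.

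Cofactors of Myc were among the genes too. Of 19 network genes with a peak without doxycycline, 4 (21.1%, 6.05% to 45.6%) were in the group and had no day 5 peak: RUVBL2, an ATPase of chromatin complexes, with 14 fragments, AURKA, the Aurora A kinase, with 12, CCNT1 with 7 and SKP2, an F-box protein, with 5. AURKA shared its peak with CSTF1, and SKP2 shared its with LMBRD2. AURKA and its activator TPX2 were 2 of 4 mitosis genes, beside CDC27 with 7 fragments and CENPI with 6, of 36 (11.1%). The cullin and F-box list gave 7 of 28 (25.0%, 10.7% to 44.9%). It was led by RNF7, the RING partner of cullins, with 12 fragments, followed by FBXO17 with 12 and FBXL8 with 10, which both kept a day 5 peak.

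Histone-modifying enzymes gave 4 of 33 (12.1%), close to the background: ASH1L, HDAC2, SUZ12 of Polycomb complex 2 with 6 fragments, and JMJD1C. JMJD1C shared its peak with REEP3, whose end was nearer the summit. Zinc finger genes named ZNF gave 11 of 91 (12.1%). Immediate early genes gave 0 of 3 and glycolysis genes 0 of 9 (upper limit 33.6%). In all, 90 of the 2622 listed genes had a peak in the group, from 30 of the 38 lists. Among markers of other cells, TUBB3 was the only neuronal gene of 18, and none of 20 leukocyte, 28 acinar and endocrine, 20 hepatocyte or 15 fibroblast markers was in the group. Only 1 neuronal, 1 leukocyte and 1 hepatocyte marker had any peak without doxycycline, and no acinar, endocrine or fibroblast marker did. Nearly all of these markers thus could not have entered the group, and their absence says nothing about it. Peaks do not measure expression, so the labelled cell line was not checked by these counts.

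In position, the peaks were those of promoters. Among 249 that could be placed, 241 (96.8%) reached the start of a gene and 8 (3.21%, 1.40% to 6.23%) only a far end. Any known start was enough to count as a start, but a far end counted only when every gene reached had a strand. Gene-end peaks with a day 5 overlap reached only a far end in 21 of 1749 cases (1.20%, 0.745% to 1.83%), an interval that meets that of the group. The 8 were VMA22 with 25 fragments, PTMA with 11, DIAPH1 with 9, RTN2 with 8, GDPD2 with 7, C6orf132 with 5, CARD8 with 4 and RUNX3 with 3. CARD8 was the only gene with a peak of the group at both ends, the one near its start having 6 fragments. A further 49 peaks had no strand for 1 or more of their genes and no known start. Among them were the peaks at the far ends of MED24 and DPF2, so the share of starts may be too high.

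Of the 285 peaks off chromosome 8, 233 lay within 1 kb of a gene start of the promoter table. Their summits had a median position of -30 bp from the start (quartiles -253 and 165), where negative positions are upstream. Summits within 500 bp of the start made up 84.1% (78.8% to 88.6%), against 90.1% (88.6% to 91.4%) of the 1721 with a day 5 overlap. Among overlapping peaks of −log10 q under 5, which are nearer in strength to the group, the share was 86.3%, inside the group's interval. The 5th to 95th percentile range of the group ran from -516 to 832 bp, and that of the overlapping peaks from -570 to 404 bp. The ranges differed mainly downstream of the start. Some peaks with summits far downstream, as at TAF5 and RPS3, lay within 1 kb of a day 5 peak. Others, as at ABCA1 and EPHX4, did not. A day 5 peak at a gene limits where a peak without day 5 overlap can lie there. Whether the choice of peaks shaped the downstream range was not tested.

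**Figure D4:**
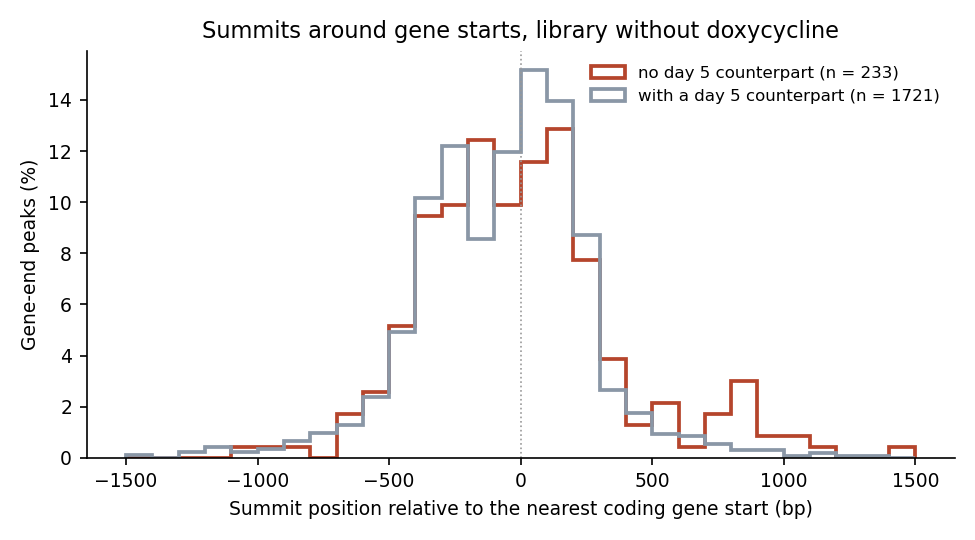
Summit positions relative to the nearest protein-coding gene start, in bp (horizontal axis), as percent of 233 peaks of the group and 1721 gene-end peaks with a day 5 overlap, in bins of 100 bp. Both gather around the start. The group has a larger share of summits beyond 500 bp downstream, and whether the choice of peaks shaped this was not tested.

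Promoter sequence was not used in choosing the peaks. The E-box CACGTG was in 26 of the 233 promoter windows of the group (11.2%, 7.42% to 15.9%), each window being the 300 bases from 250 before to 50 after the start, read on both strands. It was in 16.6% (14.8% to 18.4%) of windows at peaks with a day 5 overlap, in 11.5% at peaks listed only at day 5, and in 8.32% of all 22012 coding promoter windows. Overlapping peaks of −log10 q under 5 had it in 13.4% (10.8% to 16.4%), which overlaps the group's interval widely. When only windows that held the summit were counted, the group had it in 6 of 81 (7.41%, 2.77% to 15.4%) and the overlapping peaks in 108 of 596 (18.1%, 15.1% to 21.5%). Overlapping peaks of −log10 q under 5 had it there in 28 of 199 (14.1%, 9.56% to 19.7%), an interval that overlaps much of the group's. The CACGCG form was in 23.6% of the group's windows, 25.2% of the overlapping and 14.2% of all. The CATGTG form was in 6.44%, 7.15% and 8.96%. Any of the 3 forms was in 36.9%, 42.2% and 28.4%, so most promoters in the group held none of them in this window. A match is a description of the letters and not a bound site, and no match says only that the letters are not in this window.

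The other promoter elements are given in the same way. The GC box GGGCGG was in 73.0% of the group's windows and 74.3% of the overlapping, against 56.3% of all coding promoters. The ETS core CCGGAAG was in 63 of the group's 233 windows (interval 21.4% to 33.2%) and in 23.0% of the overlapping, against 12.8% of all. The YY1 core AAGATGG was in 12.9% (8.86% to 17.9%) and 9.30%, against 6.06%, and the CGCG-centred element TCGCGAG in 8.58% and 6.04%, against 3.07%. The CCAAT box CCAAT was in 37.3%, 41.0% and 34.7%. The NRF1 core GCATGCG was in 6.87%, 9.82% and 4.60%, the CRE core TGACGTC in 3.86%, 6.04% and 4.07%, and the AP-1 core TGANTCA in 3.43%, 3.20% and 6.16%. The TATA box TATAAA was in 6.87% (3.98% to 10.9%) of the group's windows, 3.95% (3.08% to 4.98%) of the overlapping and 9.49% of all. Among peaks of −log10 q under 5 it was in 7.78% (4.32% to 12.7%) of the group's and 3.27% (2.01% to 5.00%) of the overlapping, and these intervals also overlap. The motifs can overlap one another, as GGGCGG does with other GC-rich letters, and both strands were read. Median GC content was 65.0% in the group, 64.3% in the overlapping peaks and 62.3% in all, and the ratio of observed to expected CpG was 0.871, 0.865 and 0.737. In letters, the promoters of the group were thus CpG-rich like those of the peaks listed in both libraries.

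**Figure D5:**
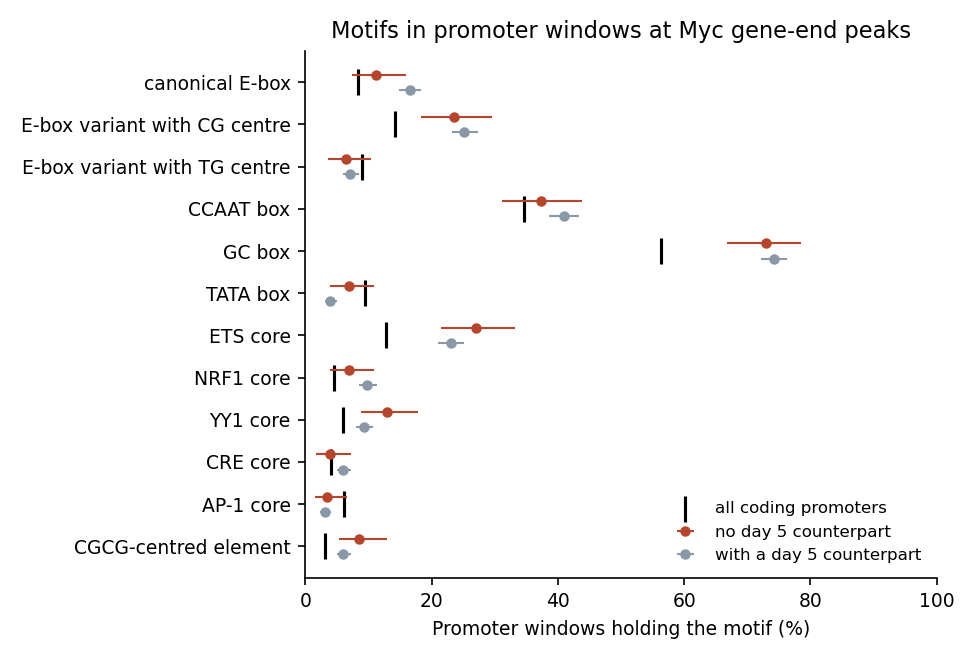
Percent of 300-base promoter windows that hold each of 12 motifs (horizontal axis), for the group, for gene-end peaks with a day 5 overlap and for all coding promoters, with exact 95% intervals for the first 2. The GC box is at 73.0% in the group and 74.3% in the overlapping peaks, both above the 56.3% of all promoters.

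The E-box windows of the group belonged to genes of varied roles. The highest-ranked were DOHH, STK4, a kinase of the Hippo pathway with 10 fragments, HEPACAM2 with 8 and TMEM42 with 8. CCNT1, UTP14A, MRPL45, CDK7 and HNRNPM, from the lists above, also had it. AP5Z1, of an adaptor complex of endosomes, held 2 copies, beginning at positions -37 and -5, with the summit of its 7-fragment peak at -493.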

How the data were processed

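Peak lists of 1 Myc CUT&Tag library without doxycycline and 1 titled day 5 were grouped by title. Trim Galore and Bowtie2, then deepTools and MACS2, are named with build hg38, per the submitters' processing notes. Not given in the sources used here were tool versions, settings and whether peak calling used an IgG control. The score the authors deposited is the integer part of 10 times the −log10 q-value. The fold the authors deposited is a ratio of summit to local background. Summit −log10 q-value and −log10 p-value columns are deposited too. These values ranked peaks within a list and were not compared between lists.

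Summit fragments were recovered from fold, as (fragments + 1)/(background + 1), and p, as a Poisson tail, for 100% of peaks within 0.001 in −log10 p. The background gave fragment lengths of 345.21 bp and 342.47 bp and the fragments per 10 kb window. PCR duplicates cannot be seen, so intervals cover counting error only. The steps were tested on simulated data, with 100% of 3468 simulated peaks right.

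Spans of 19974 protein-coding genes and 22012 promoter windows, for 15812 genes and none on chromosome 8, came from RefSeq's annotation of GRCh38.p14. Of 356 genes, 296 had a strand. Shares have exact Clopper-Pearson 95% intervals. The members, lists and named genes were chosen with earlier results of these data known. Named were the 30 highest-ranked peaks, up to 3 genes per list by rank, the peaks nearest each limit, and MYC, MAX and MED30. Other list genes, E-box genes and the far-end genes were added after their values were seen. Some named items are not reported here. List symbols without a match numbered 7. Alternatives were other overlap rules, peak thresholds and gene-end windows. Python 3.11.15, numpy 2.4.6, pandas 2.3.3, scipy 1.17.1 and matplotlib 3.10.9 were used.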

Additional observations from a re-analysis of the deposited data

Results flagged for a closer look

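Peaks on the mitochondrial genome and on contigs outside the primary chromosomes entered no comparison. Of 87 such peaks without doxycycline, 24 (27.6%, exact interval 18.5% to 38.2%) overlapped no day 5 peak. The share was 17.8% over all peaks on chromosomes 1 to 22 and X and 27.3% for those away from gene ends, the latter close to that of the contigs. No control library was set beside them.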

How the results depend on the processing

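Of 46 values recomputed under other settings, 30 stayed within the bounds set for each and 16 moved. The 298 peaks, 356 genes, 306 genes with no day 5 peak, gene-end share of 48.2% among unmatched peaks, and median of 7 fragments are the base. Some values counted as staying within bounds still shifted. Matching by summits within 500 bp gave 366 peaks and 458 genes, and a window of 2500 bp gave 435 genes. With a reciprocal overlap of 50% there were 662 peaks, 825 genes, a share of 58.0% and a median of 8 fragments, while genes with no day 5 peak numbered 307. With the upper 50% of the list without doxycycline there were 63 peaks, 78 genes, 71 genes with no day 5 peak, a share of 55.8% and a median of 12. Against the highest-ranked 3468 day 5 peaks there were 708 peaks, 885 genes, 858 genes with no day 5 peak and a share of 54.0%. The share was 43.0% with a window of 500 bp and 53.9% with 2500 bp. The CACGTG share of 11.2% became 7.41% in windows that held the summit. The cause of these moves was not tested.

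No paired analysis was possible because each condition had 1 library. The group's summits held a median of 7 fragments, and with no replicate library the spread of peak calls between repeats of 1 condition is not known here. No test of any difference between the conditions was made.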

Other observations

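Non-coding genes lay within 1 kb of 77 of the 298 peaks, of which 62 were near a long non-coding RNA gene. These were not counted for gene-end peaks with a day 5 overlap, so the numbers have no background. A tRNA gene was within 1 kb of 3 peaks (1.01%), against 0.951% of gene-end peaks with a day 5 overlap and 0.567% of those listed only at day 5. Beside the peak at VMA22, these were the widest peak of the group, 994 bp between HES7 and ALOXE3 with 19 fragments of 90.5 in its window, which overlapped TRQ-CTG1-5 and TRL-TAG1-1, and the peak at SACM1L with 9 fragments, which overlapped TRR-ACG2-1. Small nucleolar RNA genes lay near the peaks at RPL23 (SNORA21), RPS20 (SNORD54) and RPS3 (SNORD15A). MicroRNA genes lay near those at TMEM42 (MIR564), AKAP13 (MIR7706), IK (MIR3655) and PTMA (MIR1244-1). The small nucleolar RNA and microRNA genes were not set against a background either.

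Replication-dependent histone genes were reached by 5 peaks, at H4C14, H2AC11 with H2BC11, H2AC15 with H2BC15, H2AC18 with H3C14, and H2BC18 with H3C13. They had 12, 13, 10, 9 and 6 fragments. H2AC15 and H2BC15 also had a day 5 peak, and the nearest day 5 peak to theirs was 191 bp away. No share of all such histone genes was computed, so the number of peaks is not set against a background. Histone genes have close copies, as do POM121C, FAM86B2, ANKRD18B, WASHC2A, TYW1B and CDK11A, so the placing of fragments there is uncertain. By chromosome, the group's share of gene-end peaks ran from 6.58% on chromosome 14 (5 of 76, 2.17% to 14.7%) to 21.0% on chromosome 8 (13 of 62, 11.7% to 33.2%), and both intervals hold the 13.0% of the whole.

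Genes with a peak without doxycycline and none at day 5 numbered 314, and 8 of these had no peak in the group because their peak overlapped a day 5 peak that reached no end of the gene. The median span of the group's genes was 27.8 kb (quartiles 10.4 and 57.9 kb), against 24.6 kb for genes with an overlapping peak and 24.2 kb for all coding genes.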
